A study of Mus musculus with 6 samples.

Results

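Interferon-stimulated genes (ISGs) were followed in YUMM3.3 tumors from mice given rigosertib (RGS) or vehicle. The list held 46 gene names, taken by name with earlier results of these data known: 13 interferon-induced GTPases, 20 antiviral genes best known from the type I interferon response and 13 other ISGs. Of these, 45 were found among the 40166 genes of the count table, and *Eif2ak2x* was not found. A filter on low counts left 43 genes to test, because *Gbp6* and *Gbp8* had too few counts. YUMM3.3 cells, from a mouse melanoma line with mutant BRAF, were injected under the skin of C57BL/6 mice. Each group held 3 tumors, treated with RGS at 300 mg/kg or with water (vehicle) by oral gavage on 5 days a week and collected at 17 days. All 6 tumors came from this 1 cell line. Bulk RNA was sequenced from samples labelled as tumors, so fewer cells of a type and less RNA per cell cannot be told apart. The labels do not say whether each library came from a different mouse, and the p-values measure the spread between these libraries.

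Type I interferons act through the receptor chains IFNAR1 and IFNAR2 and the kinases JAK1 and TYK2, which activate STAT proteins. With IRF9, these form a complex that binds the interferon-stimulated response element (ISRE) in promoters of antiviral genes. Interferon gamma acts through another receptor, and a STAT dimer then binds the gamma-activated site (GAS). The immunity-related (IRG) and guanylate-binding (GBP) GTPases are strongly induced by interferon gamma, although many of them also respond to type I interferons. In melanoma, ISGs are expressed by the tumor cells themselves as well as by infiltrating immune and stromal cells.

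The promoters of the ISGs carried the ISRE core far more often than promoters at large. RefSeq windows (GRCm38.p6) from 250 bases before to 50 bases after the start were available for 32 of the 46 genes, in 37 windows. The ISRE core was searched on both strands as GAAA, any 2 bases, then GAAA, and the GAS core as TTCNNNGAA. The core of the ISRE was present in 18 of the 37 windows (48.6%), against 3.44% of the 32851 windows of all genes. GAS cores lay in 10 of the 37 windows (27%), against 8.3% of all windows. Among the GTPases, 7 of 8 genes with a window had an ISRE core and 4 had a GAS core, while among the type I antiviral genes 7 of 15 had an ISRE core and 4 had a GAS core. Cores of the same or of both kinds may overlap. A match is a description of the letters and not a binding site. The windows of *Igtp* and *Gbp7* are shown for the GTPases, those of *Isg15* and *Ifit3* for the antiviral genes, and that of *Ifitm2* because this gene changed in the opposite direction. Capitals mark ISRE and GAS cores. The *Igtp* window is chr11:58199306-58199605 on the plus strand, *Gbp7* chr3:142530086-142530385 (plus), *Isg15* chr4:156200769-156201068 (minus), *Ifit3* chr19:34583279-34583578 (plus) and *Ifitm2* chr7:140955912-140956211 (minus).
Igtp: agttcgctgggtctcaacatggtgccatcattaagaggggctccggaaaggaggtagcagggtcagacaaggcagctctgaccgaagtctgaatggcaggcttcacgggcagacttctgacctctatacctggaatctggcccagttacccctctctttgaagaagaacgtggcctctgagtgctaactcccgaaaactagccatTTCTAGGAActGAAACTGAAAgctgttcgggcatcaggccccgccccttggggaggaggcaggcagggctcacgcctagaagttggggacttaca
Gbp7: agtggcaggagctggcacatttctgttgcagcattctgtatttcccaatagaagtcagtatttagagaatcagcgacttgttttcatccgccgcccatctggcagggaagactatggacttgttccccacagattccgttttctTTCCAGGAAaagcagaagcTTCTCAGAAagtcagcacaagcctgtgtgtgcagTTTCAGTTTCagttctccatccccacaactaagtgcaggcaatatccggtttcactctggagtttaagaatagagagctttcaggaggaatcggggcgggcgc
Isg15: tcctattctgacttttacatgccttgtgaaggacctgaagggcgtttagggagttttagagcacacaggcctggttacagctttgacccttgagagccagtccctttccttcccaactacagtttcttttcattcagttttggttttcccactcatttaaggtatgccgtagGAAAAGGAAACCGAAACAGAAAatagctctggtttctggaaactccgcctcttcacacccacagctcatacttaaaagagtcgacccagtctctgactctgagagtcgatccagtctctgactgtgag
Ifit3: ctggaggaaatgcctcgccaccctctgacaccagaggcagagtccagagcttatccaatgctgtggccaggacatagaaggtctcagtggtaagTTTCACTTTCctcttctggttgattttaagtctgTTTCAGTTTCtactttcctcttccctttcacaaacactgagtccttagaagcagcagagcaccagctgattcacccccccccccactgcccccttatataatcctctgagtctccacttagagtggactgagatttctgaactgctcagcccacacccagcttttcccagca
Ifitm2: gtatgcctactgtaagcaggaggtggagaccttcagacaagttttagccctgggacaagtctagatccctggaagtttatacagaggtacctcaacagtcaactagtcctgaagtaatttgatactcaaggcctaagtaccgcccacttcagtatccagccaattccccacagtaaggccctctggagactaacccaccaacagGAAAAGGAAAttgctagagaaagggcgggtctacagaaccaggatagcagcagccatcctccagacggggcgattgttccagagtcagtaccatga
In *Igtp* the GAS core began 45 bases and the ISRE core 34 bases before the start. *Gbp7* had 2 GAS cores and 1 ISRE core, *Isg15* had 3 overlapping ISRE cores in a run that began 78 bases before the start, and *Ifit3* had 2 ISRE cores. In *Ifitm2* an ISRE core began 46 bases before the start.

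Before the ISGs were compared, the libraries were checked. Counts per library lay between 22793087 and 32555494 with vehicle and between 13837932 and 21617368 with RGS, so the shallowest vehicle library exceeded the deepest RGS library and depth and treatment cannot be told apart. A floor of 3 counts corresponded to 0.0856 to 0.226 CPM (counts scaled by edgeR to a common library size with TMM factors), and covers counting error only. The mitochondrial share of counts was 2.13% to 3.20% with vehicle and 5.60% to 8.22% with RGS. Although the labels describe whole tumors, defining genes of immune cells and of melanocytes were absent: *Ptprc* (CD45), *Adgre1* (F4/80), *Cd3e*, *Cd8a*, *Itgax*, *Mlana*, *Tyr* and *Dct* had 0 counts in all 6 libraries. Of 10 macrophage genes, 8 never exceeded 30 counts, and the same was true of 6 of 7 T cell genes and 6 of 7 melanocyte genes. The hemoglobin genes *Hba-a1*, *Hba-a2*, *Hbb-bs* and *Hbb-bt*, examined after the other values were seen, also had 0 counts in every library. Other genes of the immune cell lists, *Laptm5*, *Cd53*, *Cd68*, *Cd14* and *Trbc2*, were well counted in every library. These values go against the label of whole tumor tissue, so which cells the ISG values come from is not known.

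With RGS, expression of most ISGs was several-fold lower. Of the 43 genes tested, 30 were lower and 3 were higher in RGS tumors (edgeR quasi-likelihood test, adjusted p under 0.05 over 15355 genes), and 10 did not pass. Among all genes tested, 16.5% were lower and 16.3% were higher. The median log2 fold change of the 43 ISGs was -2.85, and -2.81 when genes without any count in RGS tumors were placed at their bound, beside a median of -0.05 over all genes. All 30 lower ISGs were lower by at least 1 on the log2 scale. For 36 of the 43 every RGS tumor lay below every vehicle tumor (24% of all genes did), and for 3 every RGS tumor lay above. For *Epsti1*, 1 of these 3, RGS tumor 11 and vehicle tumors 8 and 9 had 2 counts each and were separated by library scaling alone. Some of the 36, with RGS medians under 5 counts, passed the filter only through the vehicle group. A log2 fold change of -3 or less with an adjusted p under 0.05 was found for 18 ISGs, and for 1.78% of all genes. Among the 18, *Iigp1*, *Ifi47*, *Gbp3*, *Gbp5*, *Ifit3b*, *Oas1a*, *Oas2*, *Oasl2*, *Mx2*, *Ifi44* and *Xaf1* had RGS medians under 5 counts. They passed the filter only through the vehicle group, so their direction was partly set by the filter. The count of 18 uses fitted values, and *Gbp5*, without counts in RGS tumors, is among them although its bound is only 3.20-fold.

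**Figure D1:**
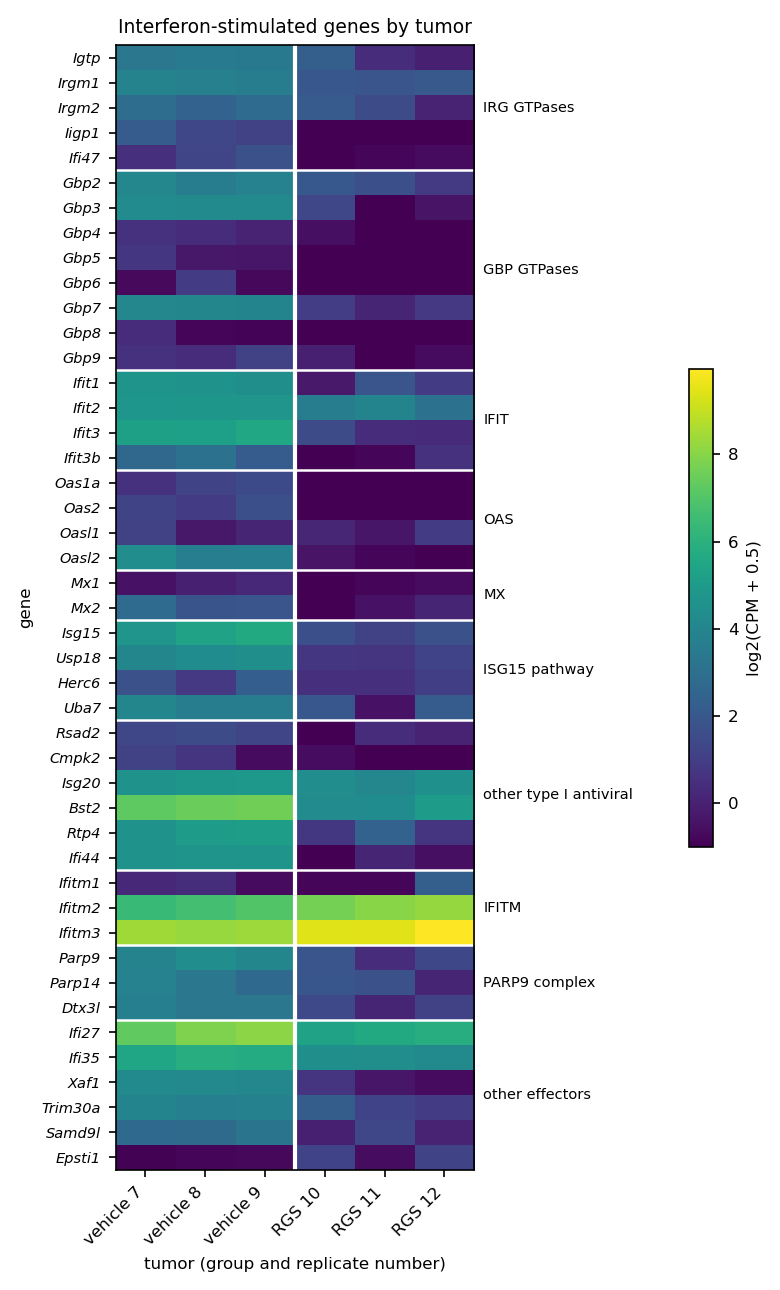
Level of the 45 ISGs in the table (rows, grouped by family) in each of the 6 tumors (columns), as log2(CPM + 0.5). Most rows are darker (lower) in the 3 RGS columns than in the 3 vehicle columns, while *Ifitm2* and *Ifitm3* are brighter in all 3 RGS columns.

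The IRG GTPases, which act on the vacuoles that hold intracellular pathogens, were lower for 4 of the 5 members tested. Igtp (Irgm3; chr11:58199556-58207591) had 9.68, 11 and 10.3 CPM in the vehicle tumors and 4.50, 0.829 and 0.489 CPM in the RGS tumors. The groups did not overlap, but RGS tumor 10 stood well above the other two. Its log2 fold change was -2.37 ± 0.58 (SE; adjusted p = 0.00418), and -3.98 without RGS tumor 10. *Irgm1*, a regulator of the other IRG proteins, had 14.4, 13.3 and 11.8 CPM with vehicle and 3.41, 3.16 and 3.67 CPM with RGS, a tight separation (log2 fold change -1.95 ± 0.34, adjusted p = 0.000224). *Irgm2*, another regulatory member, had 7.08, 4.95 and 6.62 CPM with vehicle against 3.88, 2.41 and 0.551 CPM with RGS. These values did not overlap, yet the difference (-1.44 ± 0.58) did not pass the test (adjusted p = 0.0653), although it did in 5 of 18 fits, among them that without RGS tumor 10 (adjusted p = 0.0241). *Igtp* and *Irgm2* share 162 exonic bases on the same strand, so reads there are uncertain.

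*Iigp1* (Irga6), an effector IRG protein, had 142, 56 and 41 counts with vehicle and 0 in each RGS tumor. Set against the floor of 3 counts in each RGS library, it was at least 14.2-fold lower (adjusted p = 0.000502). *Ifi47*, also known as IRG-47, had 33, 55 and 65 counts with vehicle and 0, 1 and 2 counts with RGS. The ratio was 30.0, with a 95% counting interval from 10.1 to 147 (adjusted p = 0.00976). The fitted log2 fold change was -4.81, and -5.73 without RGS tumor 12 or -4.18 without RGS tumor 10. Without vehicle tumor 8 or 9, *Ifi47* no longer passed (adjusted p = 0.0557 and 0.0696). For *Irgm1* and *Ifi47* the table holds a second row each, on a sequence of another mouse strain, with 0 counts in every tumor.

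The GBPs, large GTPases that coat bacteria and pathogen vacuoles, lie in a cluster on chromosome 3 and in another on chromosome 5. Of the chromosome 3 genes, *Gbp2*, *Gbp3* and *Gbp7* differed in every fit and *Gbp5* did not. *Gbp3* (chr3:142560026-142573209) had 18.9, 18.3 and 18 CPM with vehicle and 2.04, 0 and 0.245 CPM with RGS. The vehicle tumors were nearly equal, whereas RGS tumor 10 alone kept a level above 1 CPM. The log2 fold change was -4.46 ± 0.65 (adjusted p = 3.82e-05), and -7.05 without RGS tumor 10. *Gbp7* had 16.4, 16 and 15.1 CPM with vehicle and 1.51, 0.603 and 1.28 CPM with RGS, and *Gbp2* had 16.3, 11.9 and 14 CPM with vehicle and 3.60, 2.71 and 1.35 CPM with RGS. Both were separated in every tumor, with log2 fold changes of -3.77 ± 0.40 (adjusted p = 1.11e-06) and -2.45 ± 0.40 (adjusted p = 0.000107). *Gbp5*, which takes part in inflammasome activation, had 40, 9 and 7 counts with vehicle and 0 in each RGS tumor. This made it at least 3.20-fold lower (adjusted p = 0.026), a call that passed in 9 of 16 fits and was lost whenever any 1 tumor was left out (adjusted p between 0.0545 and 0.177).

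The GBPs of chromosome 5 were near the floor. *Gbp4* had 34, 23 and 13 counts with vehicle and 4, 0 and 0 with RGS (adjusted p = 0.108). *Gbp9* had 34, 23 and 40 counts with vehicle and 10, 0 and 2 with RGS (adjusted p = 0.17). In both, the groups did not overlap but the difference did not pass the test. *Gbp6* (4, 39 and 2 counts with vehicle) and *Gbp8* (29, 2 and 1 counts) had 0 counts in each RGS tumor and were not tested. *Gbp4*, *Gbp8* and *Gbp9* share about 60 exonic bases, and 22.2% of the 150-base windows of *Gbp6* also occur in *Gbp10*, so the division of reads among these paralogs is uncertain.

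The IFIT proteins, which bind viral RNA that lacks host cap modifications, were lower for all 4 members, a cluster on chromosome 19. *Ifit3* (chr19:34583531-34588731) had 36.7, 36 and 47.8 CPM with vehicle and 2.32, 0.829 and 0.734 CPM with RGS. Even the highest RGS tumor was far below the lowest vehicle tumor, and the log2 fold change was -4.89 ± 0.36 (adjusted p = 1.13e-08), and -5.68 without RGS tumor 10. *Ifit1* had 24.8, 23.3 and 21.8 CPM with vehicle and 0.331, 3.16 and 1.41 CPM with RGS (-3.90 ± 0.48, adjusted p = 6.36e-06). Here RGS tumor 10 was the lowest of the 3, unlike in *Igtp* and *Gbp3*, and without RGS tumor 11 the value was -4.81. *Ifit3b* had 208, 228 and 96 counts with vehicle and 0, 1 and 16 counts with RGS (-4.10 ± 0.91, adjusted p = 0.00188), which became -7.45 without RGS tumor 12 and -3.46 without RGS tumor 10. *Ifit3* and *Ifit3b* are near copies that share 18.6% and 16% of their 150-base windows. *Ifit2*, a pro-apoptotic member, kept more of its expression, with 26.7, 27.9 and 25.7 CPM against 11.6, 15.1 and 8.08 CPM (-1.21 ± 0.26, adjusted p = 0.00126).

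Among the OAS family, enzymes that make 2'-5'-linked oligoadenylate after sensing double-stranded RNA and so activate RNase L, 3 of 4 members were lower. *Oasl2*, an OAS-like protein, had 702, 345 and 302 counts with vehicle and 5, 1 and 0 counts with RGS. Its log2 fold change of -6.97 ± 0.61 (adjusted p = 9.84e-08) was the most negative among the ISGs with more than 3 counts in the RGS tumors, and was -8.58 without RGS tumor 10. *Oas1a* had 35, 53 and 52 counts and *Oas2* had 66, 40 and 62 counts with vehicle, and neither had a count in any RGS tumor. They were at least 9.29-fold (adjusted p = 0.00231) and 10.8-fold lower (adjusted p = 0.00129). Reads of *Oas1a* are uncertain, since 32.4% of its 150-base windows are also in *Oas1g*. *Oasl1*, a negative regulator of *Irf7* translation, had 60, 9 and 14 counts with vehicle and 13, 4 and 23 counts with RGS. Its groups overlapped, and no difference was detectable at this depth (-0.18 ± 1.15, adjusted p = 0.921).

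The MX GTPases, which block incoming viral nucleocapsids, had few counts in these tumors, and the *Mx1* gene of most laboratory mouse strains is defective. *Mx2* had 236, 88 and 74 counts with vehicle and 0, 3 and 10 counts with RGS, a log2 fold change of -3.98 ± 0.95 (adjusted p = 0.00343), and -5.47 without RGS tumor 12 or -3.33 without RGS tumor 10. *Mx1* had 8, 13 and 16 counts with vehicle and 0, 1 and 2 counts with RGS. Its ratio was 7.25 (95% counting interval 2.29 to 36.7), and it did not pass the test (adjusted p = 0.209). The fitted log2 fold change was -2.75, and -3.63 without RGS tumor 12 or -2.15 without RGS tumor 10.

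ISG15 is a ubiquitin-like protein that is attached to other proteins by UBA7 (the activating enzyme) and HERC6 (the main mouse ligase) and removed by USP18, which also restrains the type I receptor. *Isg15* (chr4:156199424-156200818) had 25.7, 39.2 and 49.8 CPM with vehicle and 2.75, 1.66 and 2.75 CPM with RGS. *Usp18* had 556, 556 and 506 counts with vehicle and 25, 14 and 30 counts with RGS. Both genes were separated by a wide gap, with log2 fold changes of -3.98 ± 0.31 (adjusted p = 2.21e-08) and -3.81 ± 0.36 (adjusted p = 2.72e-07). *Uba7* had 15.8, 11.5 and 11.9 CPM with vehicle and 3.46, 0.226 and 4.04 CPM with RGS (-2.32 ± 0.56, adjusted p = 0.00345), so RGS tumor 11 was far below the other RGS tumors. *Herc6* overlapped between groups, with 2.80, 1.28 and 4.34 CPM against 0.947, 0.904 and 1.53 CPM (adjusted p = 0.206).

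Of the other 6 type I antiviral genes, *Bst2*, *Rtp4* and *Ifi44* were lower. *Bst2* (chr8:71534255-71537456) encodes tetherin, which holds budding virions at the cell surface. It had 151, 178 and 193 CPM with vehicle and 19.1, 19.6 and 32.1 CPM with RGS (-2.88 ± 0.21, adjusted p = 8.55e-09). *Ifi44* had 24.7, 24.9 and 24.9 CPM with vehicle and 0, 0.603 and 0.184 CPM with RGS, the latter from 0, 8 and 3 counts. Its vehicle tumors were almost identical and its log2 fold change was -6.74 ± 0.55 (adjusted p = 3.65e-08), with -8.18 without RGS tumor 11 and -6.03 without RGS tumor 10. *Rtp4*, a Golgi chaperone with antiviral activity, had 24.6, 32.5 and 33.5 CPM with vehicle and 1.23, 4.97 and 1.10 CPM with RGS (-3.68 ± 0.43, adjusted p = 3.32e-06; -4.70 without RGS tumor 11), and shares 296 exonic bases with *Gm45338*. *Rsad2* (viperin, which makes a chain-terminating nucleotide) and its neighbor *Cmpk2* did not pass. *Rsad2* had 72, 65 and 46 counts with vehicle and 0, 11 and 9 with RGS (adjusted p = 0.141), and *Cmpk2* had 60, 30 and 3 counts with vehicle and 3, 0 and 0 with RGS (adjusted p = 0.068). *Isg20*, an exonuclease, had 23.3, 27.9 and 28.4 CPM with vehicle and 20.4, 16.3 and 22.5 CPM with RGS, a small difference without overlap that did not pass (-0.43 ± 0.22, adjusted p = 0.152).

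The IFITM genes, whose proteins block fusion of enveloped viruses in the endosome, departed from the other families. *Ifitm3* (chr7:141009586-141010770) had 334, 313 and 325 CPM with vehicle and 684, 716 and 1001 CPM with RGS. *Ifitm2* had 86.7, 103 and 126 CPM with vehicle and 203, 257 and 304 CPM with RGS. Every RGS tumor was above every vehicle tumor in both genes, with log2 fold changes of 1.31 ± 0.17 (adjusted p = 8.28e-06) and 1.28 ± 0.18 (adjusted p = 2.89e-05). *Ifitm1* was near the floor in all but 1 tumor, with 25, 24 and 3 counts with vehicle and 1, 1 and 74 counts with RGS. Its direction therefore rested on RGS tumor 12 (1.44 ± 1.36, adjusted p = 0.453, and -3.15 without this tumor). Reads of *Ifitm2* are partly uncertain, since it shares 268 exonic bases with *Gm45717*, which had at most 13 counts.

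PARP9 and DTX3L form a complex that modifies histones and enhances the interferon response, and PARP14 is a related ADP-ribosyltransferase. All 3 were lower. *Parp9* had 14.4, 20.2 and 15.9 CPM with vehicle and 3.17, 0.829 and 2.08 CPM with RGS (-3.02 ± 0.41, adjusted p = 1.91e-05). *Dtx3l* had 12.8, 9.66 and 9.59 CPM against 2.18, 0.603 and 1.71 CPM (-2.81 ± 0.47, adjusted p = 0.000142). The genes lie head to head and share 458 exonic bases on opposite strands, and in both the lowest RGS tumor was 11. *Parp14* had 14.1, 9.55 and 6.32 CPM against 3.36, 2.79 and 0.612 CPM (-2.14 ± 0.52, adjusted p = 0.00371).

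Among the remaining effectors, 5 of 6 in the table were lower and *Epsti1* was higher. *Xaf1*, an antagonist of the apoptosis inhibitor XIAP, had 18.3, 17.6 and 16.5 CPM with vehicle and 1.09, 0.301 and 0.122 CPM with RGS (-5.01 ± 0.52, adjusted p = 7.85e-07). *Ifi27*, a mitochondrial and nuclear envelope protein, had 156, 228 and 267 CPM against 39.1, 50.5 and 57.1 CPM (-2.15 ± 0.20, adjusted p = 2.47e-07). *Ifi35*, a partner of the STAT-interacting protein NMI, had 43.4, 56.9 and 53 CPM against 21.3, 20.7 and 17.8 CPM (-1.36 ± 0.20, adjusted p = 3.71e-05). These 3 genes did not overlap between groups, and *Xaf1* differed most, with -6.38 when RGS tumor 10 was left out. *Xaf1* had 23, 4 and 2 counts with RGS, a median under 5, and passed the filter only through the vehicle group. *Trim30a*, which limits Toll-like receptor signaling, had 15.2, 12.9 and 13.5 CPM against 4.17, 1.81 and 1.41 CPM (-2.47 ± 0.41, adjusted p = 0.000156; -3.11 without RGS tumor 10). *Samd9l*, an inhibitor of translation, had 6.31, 6.41 and 8.86 CPM against 0.473, 2.03 and 0.551 CPM (-2.85 ± 0.61, adjusted p = 0.00131; -3.81 without RGS tumor 11). *Epsti1* had 1, 2 and 2 counts with vehicle and 38, 2 and 31 counts with RGS (4.29 ± 1.49, adjusted p = 0.0334). RGS tumor 11 was thus at vehicle counts, and the call passed in 10 of 16 fits and was lost when any tumor other than RGS tumor 11 was left out (adjusted p between 0.0775 and 0.127). With a vehicle median under 5 counts, *Epsti1* passed the filter only through the RGS group.

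**Figure D2:**
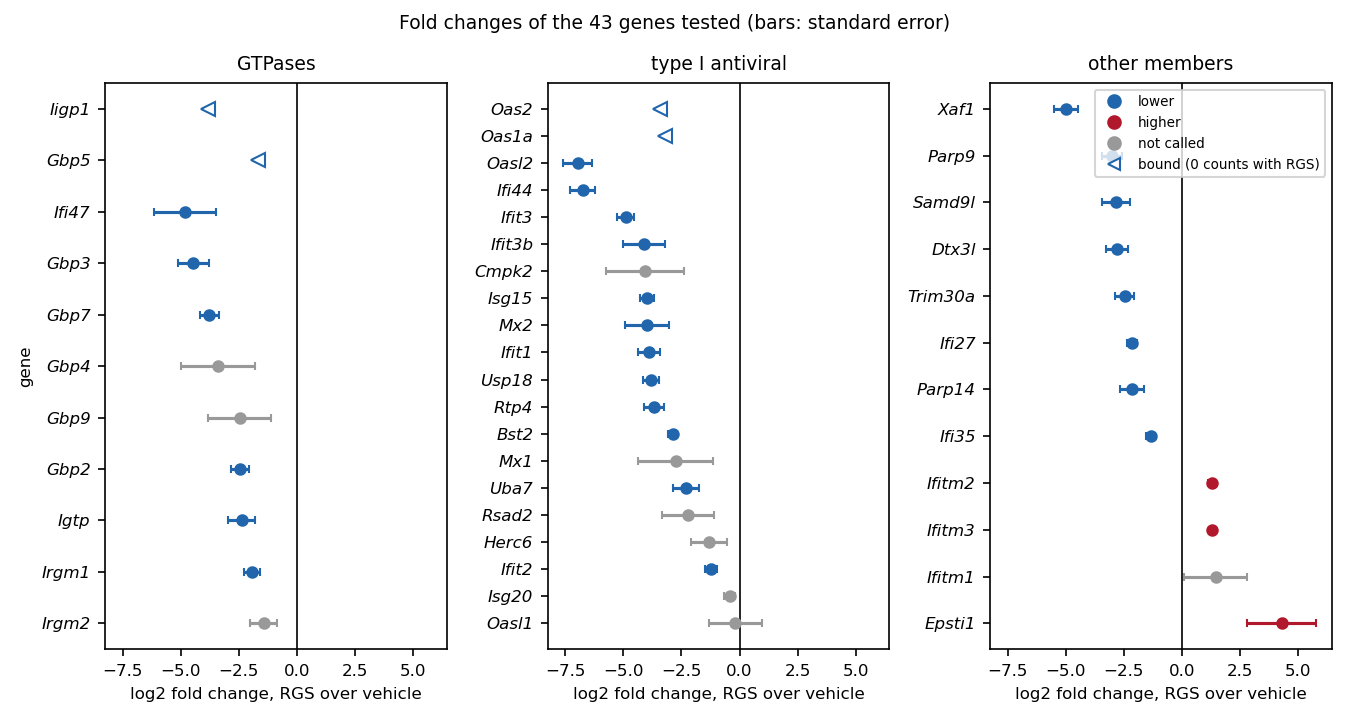
Log2 fold change (RGS over vehicle) with its standard error for the 43 ISGs tested, in 3 panels by class. Open triangles are bounds for genes with 0 counts in all RGS tumors, and the 3 red points right of 0 are *Ifitm2*, *Ifitm3* and *Epsti1*.

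GTPases and type I antiviral genes were then set side by side. Of 11 GTPases tested, 8 were lower (72.7%) and 0 were higher, and in all 11 the RGS values lay wholly below the vehicle values. Of 20 type I antiviral genes, 14 were lower (70%), 0 were higher, and 17 were without overlap. Among all genes tested, 16.5% were lower, and in 24% every RGS tumor lay below every vehicle tumor. *Iigp1*, *Ifi47*, *Gbp3*, *Gbp4*, *Gbp5* and *Gbp9* had RGS medians under 5 counts and passed the filter only through the vehicle group. The same held for *Oas1a*, *Oas2*, *Oasl2*, *Ifit3b*, *Mx1*, *Mx2*, *Cmpk2* and *Ifi44*. The direction of these genes was thus partly set by the filter. The median log2 fold change was -3.40 for the GTPases and -3.85 for the type I genes. With genes at 0 in RGS placed at their bound, the medians were -2.47 and -3.56. The GTPase medians are the values of *Gbp4* (-3.40) and *Gbp9* (-2.47), which had few counts and did not pass the test. The fitted GTPase median moved to -4.07 without RGS tumor 10. The difference between the classes was not tested, and the GTPases were the less abundant class. Their summed level was 85.9 ± 5.10 CPM in vehicle tumors and 12.4 ± 6.30 CPM after RGS (SD, n = 3 tumors), and that of the type I genes was 453 ± 39.2 CPM and 70.0 ± 8.58 CPM. The summed level was thus 6.93-fold lower for the GTPases and 6.46-fold lower for the type I genes.

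**Figure D3:**
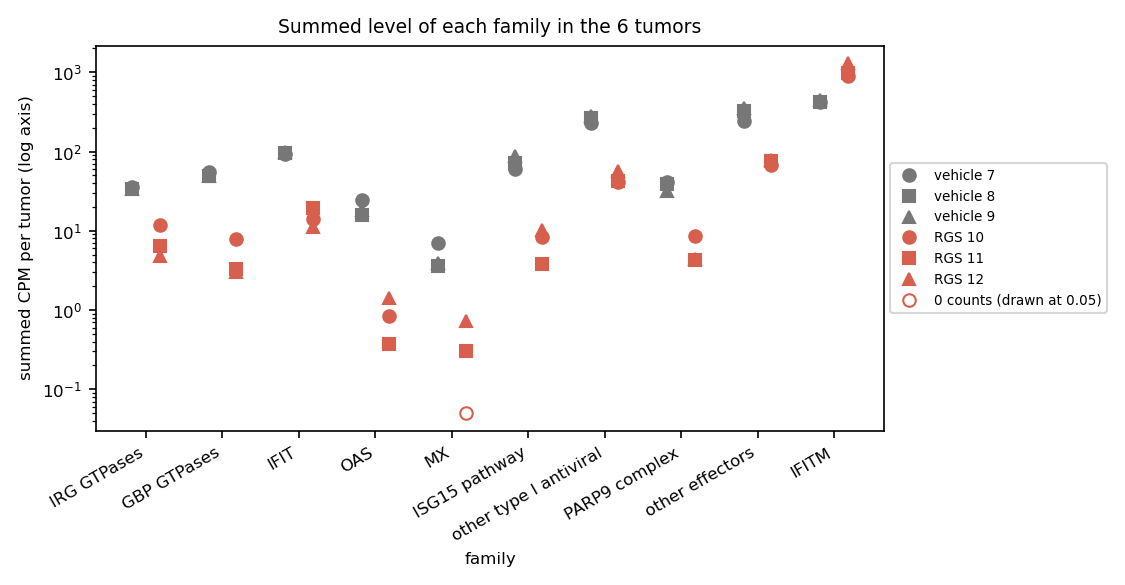
Summed CPM of each ISG family (horizontal axis) in each tumor on a log axis, with vehicle tumors in grey and RGS tumors in red. The RGS tumors lie below the vehicle tumors in every family apart from IFITM, where they lie above.

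By family, the summed level was 22.4-fold lower for OAS, 13.9-fold for MX, 11-fold for GBP, 9.85-fold for the ISG15 pathway, 6.49-fold for the PARP9 group, 6.48-fold for IFIT and 4.45-fold for IRG genes. The MX value rested on few counts and was 31.9-fold without RGS tumor 12 and 9.29-fold without RGS tumor 10. The OAS sum came mostly from *Oasl2* with vehicle (15.1 of 19.7 CPM) and from *Oasl1* with RGS (0.775 of 0.879 CPM). The OAS value was 32.0-fold without RGS tumor 12 and 17.4-fold without RGS tumor 11. Without RGS tumor 10 the GBP value was 16.4-fold, above that of MX, so the order of the families depended on single tumors. For IFITM the summed level was 2.46-fold higher with RGS (430 ± 18.7 CPM against 1057 ± 224 CPM). *Ifitm3* made up so much of the total that the sum of all ISGs was 1207, 1314 and 1417 CPM with vehicle and 1047, 1128 and 1481 CPM with RGS, which overlap. Without the 3 IFITM genes it was 786, 898 and 966 CPM with vehicle and 160, 155 and 171 CPM with RGS, which do not.

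The order of the RGS tumors by summed level differed between the classes. GTPases summed to 19.6, 9.79 and 7.83 CPM in RGS tumors 10, 11 and 12, while type I genes summed to 64.3, 65.9 and 79.9 CPM. *Bst2* alone gave 19.1, 19.6 and 32.1 CPM of the type I sums, and most of the higher sum in tumor 12. Tumor 10 had the highest level of the 3 for 7 of the 9 GTPases with any RGS count, tumor 12 for 2 and tumor 11 for 0. Among the 18 type I genes with a count, tumor 10 was highest for 3, tumor 11 for 5 and tumor 12 for 10. These are counts over single tumors and were not tested, and the share over all genes was not taken. They include genes near the floor, among them *Gbp4*, *Ifi47*, *Oasl2*, *Mx1* and *Cmpk2*, with at most 5 counts in any RGS tumor. In tumor 10 *Igtp* had 95 counts, against 11 and 8 in the other two, whereas *Ifit1* had 7 counts there, against 42 and 23.

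**Figure D4:**
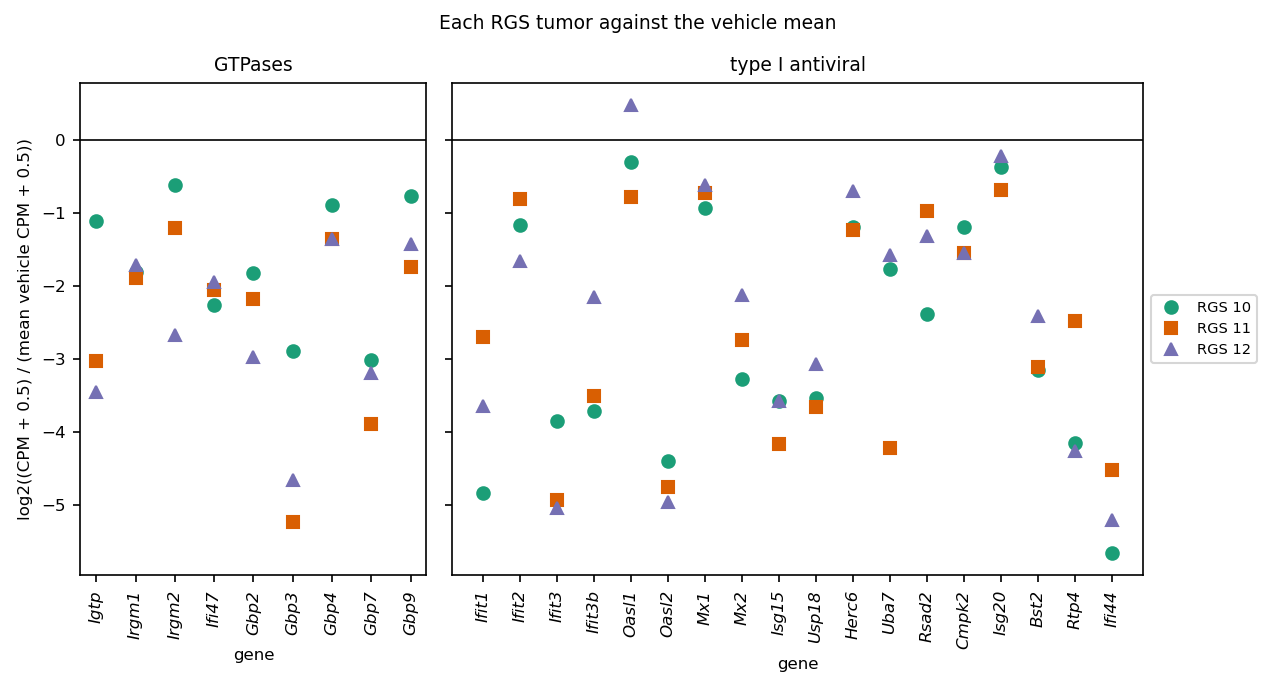
Each RGS tumor's level relative to the vehicle mean, as log2((CPM + 0.5)/(mean vehicle CPM + 0.5)), for the 9 GTPases and 18 type I antiviral genes with any count in an RGS tumor. Tumor 10 (circles) is the topmost point for 7 of the 9 GTPases and for 3 of the 18 type I genes.

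Levels between genes were compared per kilobase of the gene length in the table. In vehicle tumors *Ifitm3* was highest at 478 CPM per kb, followed by *Bst2* (193), *Ifitm2* (161) and *Ifi27* (148 CPM per kb). Over the vehicle tumors *Ifitm3* ranged from 461 to 492 CPM per kb and stood apart, while *Bst2* (167 to 214), *Ifitm2* (132 to 192) and *Ifi27* (106 to 182 CPM per kb) overlapped. *Isg15* came next at 50.6 CPM per kb, and *Epsti1* was last at 0.0267. In RGS tumors *Ifitm3* reached 1180 and *Ifitm2* 389 CPM per kb, ahead of *Ifi27* (33.3) and *Bst2* (26.1). *Isg15*, at 3.16 CPM per kb, then ranked below *Isg20* (10.6 CPM per kb), which had ranked below it with vehicle (14.3 CPM per kb).

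Fold changes were also listed by promoter motif. Among the tested ISGs, 17 had a window with an ISRE core, of which 13 were lower and 2 were higher (median log2 fold change -2.88, or -2.47 with genes at 0 in RGS at their bound). Another 15 had windows without one, of which 9 were lower and 1 was higher (median -2.32 either way). The 11 without a window had 8 lower and a median of -3.40. Among all genes tested, 16.5% were lower and 16.3% were higher. *Ifitm2* and *Ifitm3*, both higher with RGS, carried ISRE cores, while the window of *Epsti1*, also higher, held neither core. Among the ISGs with the most negative fitted changes, the windows of *Oasl2*, *Ifi44* and *Xaf1* held neither core. Those of *Oas1a*, *Gbp5* and *Ifit3*, also among these ISGs, held ISRE cores, and *Iigp1* and *Oas2* had no window.

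The other genes of the pathway were taken from fixed lists. Of 57 other interferon-inducible genes, 43 were tested, 28 were lower and 2 were higher, with a median log2 fold change of -2.22 (-1.81 with genes at their bound). These were 65.1% and 4.65% of those tested, against 16.5% and 16.3% of all genes. *Eif2ak2* (PKR), the kinase that halts translation on sensing double-stranded RNA, had 40.6, 32.3 and 42.7 CPM with vehicle and 27.6, 14.5 and 10.3 CPM with RGS (-1.13 ± 0.28, adjusted p = 0.00477). By the rule for naming, the strongest decreases were *Oas1c* (at least 13-fold lower, 0 counts in each RGS tumor), *Phf11d* (-5.17), the chemokine *Cxcl10* (-3.84) and the antibody receptor *Trim21* (-3.70). The 2 that rose were *Cd274* (PD-L1), with 8.16, 9.19 and 5.93 CPM against 31.4, 28.4 and 19.3 CPM (1.76 ± 0.27, adjusted p = 7.34e-05), and the peptide transporter subunit *Tap2* (0.62 ± 0.21, adjusted p = 0.0288).

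Of 24 genes for interferon receptors, JAK kinases, STATs, IRFs and inhibitors, 22 were tested, 6 were lower and 4 were higher, with a median of 0.08. These were 27.3% and 18.2% of those tested, against 16.5% and 16.3% of all genes, so the higher share was near that of all genes. The lower genes included the transcription factors *Irf7* (-4.27), *Irf9* (-2.75), *Stat2* (-2.00) and *Irf1* (-1.51) and the inhibitor *Socs3* (-0.60). *Irf7*, the inducer of interferon alpha genes and itself an ISG, had 40.3, 34.6 and 38.4 CPM with vehicle and 1.80, 2.26 and 1.84 CPM with RGS (adjusted p = 1.28e-09). *Irf9* had 41.8, 44.7 and 53.1 CPM with vehicle and 6.77, 7.68 and 6.36 CPM with RGS (adjusted p = 3.87e-08). The higher genes included *Ifnar1* (0.85 ± 0.17, adjusted p = 0.000824), the inhibitor *Socs1* (1.02 ± 0.21, adjusted p = 0.00107) and *Il10rb* (0.66). *Irf1* and *Socs3* fall outside the rule and were named once their values were known. The other receptor chains and kinases tested, *Ifnar2*, *Ifngr1*, *Ifngr2*, *Jak1*, *Jak2* and *Tyk2*, lay between -0.47 and 0.34 and did not pass.

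Interferon genes themselves were barely counted. Of 20 ligand names 14 were in the table, and *Ifng* had 0 counts in all 6 tumors. *Ifnb1* had 3, 0 and 0 counts with vehicle and 0, 4 and 0 counts with RGS. *Ifna4* (22 counts in RGS tumor 12), *Ifna13* (18, 0 and 4 counts with RGS) and *Ifnab* (2, 3 and 11 counts with RGS) had 0 counts with vehicle and were not tested. *Ifne*, an epithelial interferon, had 7, 2 and 0 counts with vehicle and 45, 0 and 6 counts with RGS (adjusted p = 0.168).

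Some genes of the cell type lists moved with the treatment as well. The summed level of 5 leukocyte genes was 187 to 248 CPM with vehicle and 920 to 1028 CPM with RGS, nearly all of it from *Laptm5* (2.35 ± 0.17, adjusted p = 9e-09) and *Cd53* (1.41 ± 0.17, adjusted p = 5.43e-06), while *Ptprc* was at 0. The 10 macrophage genes summed to 65.1 to 71.0 CPM with vehicle and 83.0 to 107 CPM with RGS, mainly from *Cd68* (0.24, adjusted p = 0.293) and *Cd14* (1.66, adjusted p = 0.000136). Of the fibroblast genes, 3 of 6 tested were lower (50%) and 1 was higher (16.7%), against 16.5% and 16.3% of all genes. *Col1a2* was at -0.73 and *Pdgfra* at -0.70. The largest changes went in opposite directions, with *Dcn* at 3.24 (adjusted p = 6.23e-05) and *Pdgfrb* at -2.20 (adjusted p = 0.000179). *Col1a1* did not pass (0.10, adjusted p = 0.811). *Dcn*, *Pdgfrb* and *Col1a1* fall outside the rule for naming and were named once their values were known. *Flt3*, *Trac*, *Eomes*, *Cdh5* and *Ivl* were higher, each the only gene called in the dendritic cell, T cell, NK cell, endothelial and keratinocyte lists. In these lists 5 of 7, 6 of 7, 5 of 6, 5 of 6 and 5 of 7 genes never exceeded 30 counts. No rise of a cell type can be read from these single genes. *Zbtb46*, *Trbc2*, *Pecam1*, *Krt10*, *S100a8*, *Mitf* and *Pmel* did not pass, and *Cd79a*, *Ncr1* and *S100a9* had too few counts to test. The part of the cell type genes in the ISG values was not tested. With counts thinned to the smallest library, and likewise with mitochondrial genes left out, 30 ISGs were lower and 3 were higher, as before. Thinning evens out counting noise only, and leaving out mitochondrial genes changes library totals only. Neither run can separate the treatment from other differences between the groups.

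**Figure D5:**
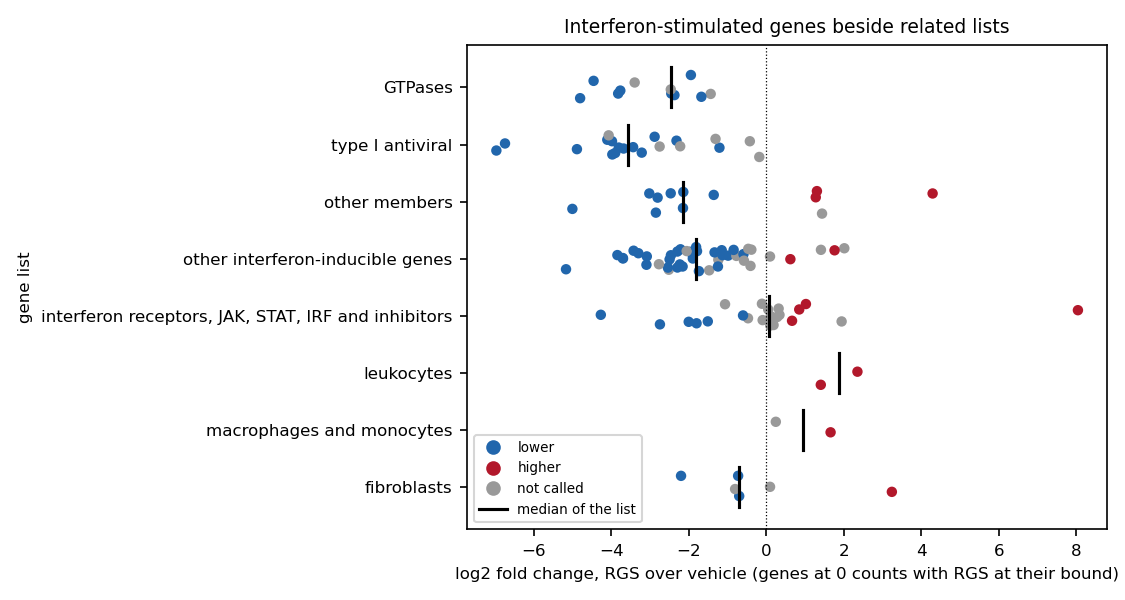
Log2 fold change (RGS over vehicle) of each tested gene in the ISG classes and in related lists, with the median of each list as a black bar and genes without RGS counts at their bound. The ISG classes and the other interferon-inducible genes lie mostly left of 0, the receptor and JAK-STAT list has its median at 0.08, and a gene without vehicle counts stands at its fitted value.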

How the data were processed

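Total RNA of 6 samples labelled as YUMM3.3 tumors was sequenced. The authors deposited raw counts of reads per gene, not normalized, with gene length and position. Per the submitters' processing notes, cutadapt 1.18, FastQC 0.11.7, STAR 2.7.1a and featureCounts 1.6.4 were used with build mm10. How strand and reads matching several genes were handled is not given in the sources used here. Gene positions equalled those of GENCODE M21 for all 38971 identifiers found in both.

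From these counts, genes whose median count reached 5 in either group were tested in R 4.3.3 with edgeR 4.0.16 (TMM factors, quasi-likelihood F test, Benjamini-Hochberg adjustment over 15355 genes, threshold 0.05). CPM values used the TMM-scaled library of the tested genes. DESeq2 1.42.0, limma 3.58.1 (voom), other scalings and filters, thinned counts and each tumor left out were alternatives. For a single value, exact permutation of 3 against 3 tumors cannot go below p = 0.1, so p-values come from the fit across all genes. Pairs of libraries of 1 group varied by at least 18.5 times their sampling variance (chi-square per degree of freedom), and each was kept as a replicate. The procedure was tested on simulated data.

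The ISGs and all gene lists were chosen with earlier results of these data known. All 46 members are accounted for. Of the other interferon-inducible genes and of the receptor and JAK-STAT list, up to 4 called genes in each direction were named, with groups that do not overlap and a mean of at least 1 CPM. Every ligand with a count, *Eif2ak2* and the 2 most abundant genes of each cell type list were also named. Some genes that the rule takes are not reported here. Promoter windows came from RefSeq.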

Additional observations from a re-analysis of the deposited data

How the results depend on the processing

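The counts of lower and higher ISGs kept within 1.5 times of their values under every alternative run, with 28 to 30 ISGs lower, 2 to 3 higher, 6 to 8 GTPases lower, 14 type I antiviral genes lower and 0 higher when each tumor was left out. Of 43 ISGs, 33 kept direction and side of the threshold throughout. The median over the ISGs (-2.85) was -3.13 with limma voom, -2.89 with upper-quartile factors, -2.98 with library size only, -2.89 without a filter, -2.90 with thinned counts and between -3.33 and -2.85 without single tumors. The GTPase median (-3.40) was -2.91 with edgeR's filterByExpr and between -4.07 and -2.89 without single tumors, and the type I median (-3.85) between -3.78 and -3.36. *Ifitm1* (1.44) turned to -1.19 with limma voom and -3.15 without RGS tumor 12, and lay between -3.15 and 2.03 over single tumors left out. *Oasl1* turned to 0.56 with limma voom, 0.75 without vehicle tumor 7 and 0.18 without RGS tumor 11, within -0.93 to 0.75 over single tumors left out. The causes were not tested. Scaling by library size only moved the median of all genes by -0.14 and gave 3152 lower and 1870 higher genes, against 2533 and 2503. No paired analysis was possible because the groups share no replicate number. Depth limits *Gbp4*, *Gbp6*, *Gbp8*, *Gbp9*, *Mx1*, *Cmpk2* and *Oasl1*, which had few counts in either group.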
